A study of Mus musculus with 11 samples.

Results

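The fibroblast growth factor (Fgf) receptors Fgfr1 to Fgfr4 and the ligands Fgf2, Fgf8, Fgf9, Fgf10, Fgf18 and Fgf20 were followed in otospheres, in the cochlear sensory epithelium (CSE) from which such spheres are grown, and in embryonic stem cells (ESCs). They are 10 of the 20284 genes that probes of the array could be assigned to, and were chosen by name as the receptors of the family and ligands known from the cochlea. They are covered by 19 of the 55681 probes, 1 to 3 per gene, and the brightest probe of each gene is described first. All 19 probes passed the filter on dim probes.

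CSE was dissected from ICR mice at postnatal day 1, with 10 mice and 20 cochleae in each preparation, by removing the spiral ligament and the stria vascularis. Otospheres were floating spheres of dissociated CSE cells of the same strain and age, grown for 4 to 5 days, dissociated, grown for another 4 to 5 days as passage 1, and strained to keep solid spheres. The ESCs were the feeder-free lines G4-2 (ES1) and D3 (ES2) at passage 13, kept in serum and LIF, with 1 array each and no strain given. The sphere medium held basic Fgf, the protein that Fgf2 encodes, at 10 ng/ml, IGF1 at 50 ng/ml and heparan sulfate, so the otospheres were under added Fgf when RNA was taken. RNA was measured on 11 single-colour arrays, 6 of otospheres, 3 of CSE and 2 of ESCs. OS1 with OS2 and OS4 with OS5 differed by less than the spread between spots of 1 array and were each averaged, which left 4 otosphere samples. The study speaks of experimental batches of otospheres and of technical duplicates, but no label ties a sample to its own culture or dissection, so the p-values measure the spread between these samples, which may be technical.

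Fgf ligands are secreted proteins that bind tyrosine kinase receptors together with heparan sulfate and drive the MAP kinase cascade, which switches on feedback inhibitors of the Sprouty, Spred and Dusp families and transcription factors of the Etv family. In the cochlea, Fgfr1 and Fgf20 act in the prosensory domain, Fgf8 is made by inner hair cells, and Fgfr3 marks pillar and Deiters' cells, which are supporting cells. Fgf9 and Fgf10 are made by the otic epithelium.

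The sequences before the start sites of 7 of the 10 genes were taken from RefSeq (GRCm38.p6), 8 start sites in all. Those of Fgfr3, Fgfr4 and Fgf10, which had the largest differences between otospheres and CSE, are given here, 250 bases each up to the start and read 5′ to 3′ on the gene's strand. Fgfr3 has 2 start sites in RefSeq, and the first is shown.

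Fgfr3, chr5:33721474-33721723 (plus strand): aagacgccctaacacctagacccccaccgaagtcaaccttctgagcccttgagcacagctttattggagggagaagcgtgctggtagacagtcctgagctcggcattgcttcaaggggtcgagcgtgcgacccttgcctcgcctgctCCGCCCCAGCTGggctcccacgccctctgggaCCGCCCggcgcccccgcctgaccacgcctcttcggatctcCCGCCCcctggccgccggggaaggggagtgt
Fgfr4, chr13:55152568-55152817 (plus strand): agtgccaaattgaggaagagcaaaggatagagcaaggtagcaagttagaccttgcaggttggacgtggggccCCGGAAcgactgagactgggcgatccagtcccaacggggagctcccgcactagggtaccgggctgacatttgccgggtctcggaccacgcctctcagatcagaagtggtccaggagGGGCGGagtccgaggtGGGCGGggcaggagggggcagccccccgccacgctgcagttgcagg
Fgf10, chr13:118714449-118714698 (plus strand): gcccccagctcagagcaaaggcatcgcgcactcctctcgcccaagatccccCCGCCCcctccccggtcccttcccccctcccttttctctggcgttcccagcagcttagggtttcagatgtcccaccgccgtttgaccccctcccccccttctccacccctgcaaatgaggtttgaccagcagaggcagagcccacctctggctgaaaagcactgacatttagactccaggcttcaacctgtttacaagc

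Capitals mark matches, on either strand, to an E-box (CAGCTG), a SOX-type motif (AACAAT), an ETS-type motif (CCGGAA), a GC box (GGGCGG) or a TATA box (TATAAA). In the Fgfr3 promoter shown, a GC box and the E-box lie side by side without overlap, and 2 further GC boxes follow, while the window of the second start site held 2 GC boxes and no E-box. GC boxes stood in 6 of the 8 member promoters, 2 of them of Fgfr3, and in 32.7% of all 32851 promoters of the same length. The bases G and C made up 61.2% to 77.2% of these 6, 44% of the Fgfr2 promoter and 44.8% of the Fgf9 promoter. The median over all promoters was 52.4%, so the shares with a GC box compare promoters of unlike base content. The E-box was in 1 of the 8 and in 13% of all promoters, and the ETS-type motif was in 1 of the 8 and in 12% of all. The SOX-type motif and the TATA box, held by 9.42% and 12.4% of all promoters, had no match in these windows. The Fgf9 and Fgfr2 promoters held no match to any of the 5 motifs.

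Between otospheres and CSE, 6 of the 10 genes passed the test and all 6 were lower in otospheres, whereas 11% of all 47997 probes tested passed, 6.19% as lower and 4.84% as higher. They were the receptors Fgfr2, Fgfr3 and Fgfr4 and the ligands Fgf9, Fgf10 and Fgf20. None was higher, by limma's adjusted p or at an unadjusted p under 0.05. The median difference over the 10 genes was -1.55 on the log2 scale, against 0.02 over all probes. Otosphere and CSE samples did not overlap for 7 of the 10 genes, and for 23.4% of all probes. The shares of all probes take in dimmer probes of a gene and probes without a gene name. Each gene here counts by its brightest probe, so the 2 are not fully alike. Of the 19 probes, 9 passed as lower. The tissue was measured in bulk, so fewer cells that express a gene and less RNA per cell cannot be told apart.

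**Figure D1:**
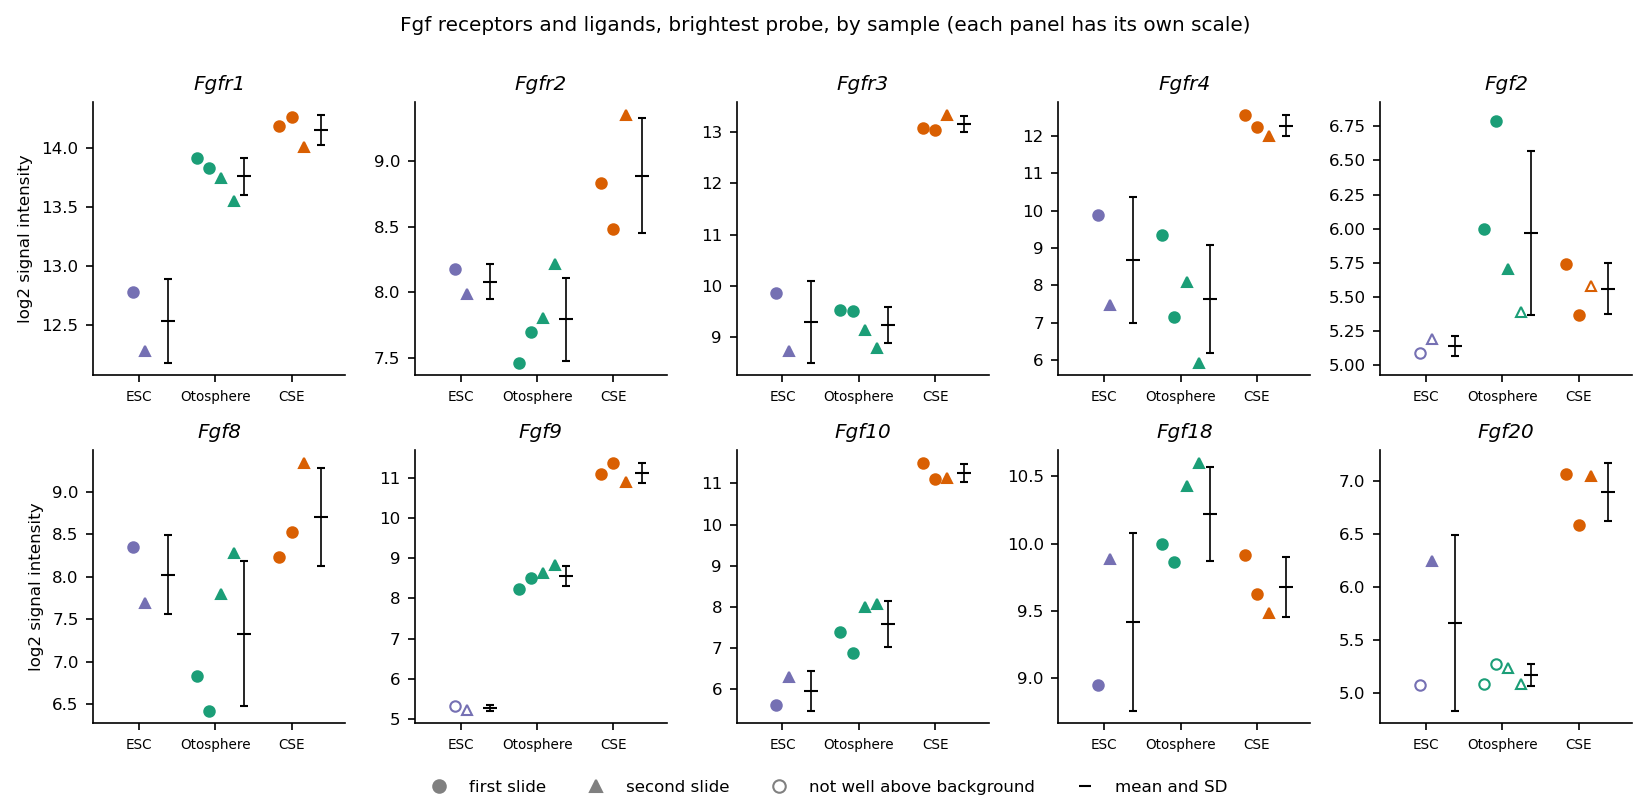
Log2 signal intensity of the brightest probe of each gene in every sample, grouped as ESCs, otospheres and CSE, with the mean and SD of each group beside the points and a separate scale for each panel. The otosphere samples of Fgfr3, Fgfr4, Fgf9, Fgf10 and Fgf20 all lie below the CSE samples, while those of Fgf2 and Fgf18 overlap with them, and open symbols mark samples in which no array was well above background.

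Fgfr3, the receptor of pillar and Deiters' cells, had a log2 signal of 9.52 in the pair OS1 and OS2, 9.52 in OS3, 9.15 in the pair OS4 and OS5 and 8.79 in OS6. It was 13.09, 13.04 and 13.34 in the 3 CSE samples and 9.86 and 8.73 in ES1 and ES2. The otospheres thus lay among the ESCs, and every CSE sample lay far above both. The difference between otospheres and CSE was -3.91 (SE 0.29), a 15.0-fold lower signal in otospheres (adjusted p = 1.34e-04). The difference between otospheres and ESCs was -0.05 (95% interval -0.80 to 0.70, adjusted p = 0.936). The other Fgfr3 probe also passed as lower in otospheres than in CSE, by a smaller difference of -1.75 (SE 0.23, adjusted p = 0.00197).

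Fgfr4, another receptor of the family, had the largest SD of the 10 genes among the otospheres (1.45, n = 4). Its log2 signal was 9.35 in the pair OS1 and OS2, 7.15 in OS3, 8.08 in the pair OS4 and OS5 and 5.93 in OS6. It was 12.57, 12.22 and 12.00 in CSE and 9.87 and 7.48 in ESCs. The otospheres overlapped with the ESCs and reached below them, and none came within the CSE range. The difference from CSE was -4.64 (SE 0.80, 24.9-fold lower, adjusted p = 0.00646), and the other probe gave -1.82 (SE 0.27, adjusted p = 0.00335). The signal was higher in CSE than in ESCs by 3.59 (SE 0.95, adjusted p = 0.0204), a call that was lost without CSE1 (adjusted p = 0.0614) and without ES2 (adjusted p = 0.155), and from the scanner's processed signal without the quantile step (adjusted p = 0.0537).

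Fgfr2, which is known from non-sensory otic epithelium, had log2 signals of 7.46 to 8.21 in otospheres, with a median between 7.69 and 7.80, and of 8.84, 8.48 and 9.36 in CSE. The ESCs were at 8.17 and 7.99, inside the otosphere range. Relative to CSE, the difference was -1.10 (SE 0.25, 2.14-fold lower, adjusted p = 0.0234). This was the weakest of the 6 calls. It was lost without the pair OS1 and OS2 (adjusted p = 0.0585), without the pair OS4 and OS5 (0.063), without CSE1 (0.0782) and without CSE3 (0.0847), and the other probe gave a difference of -0.97 (adjusted p = 0.0698).

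Fgfr1, the receptor of the prosensory domain, was the receptor whose otosphere signal stayed nearest to that of CSE. It had log2 signals of 13.91, 13.83, 13.74 and 13.55 in otospheres, 14.18, 14.26 and 14.01 in CSE, and 12.79 and 12.29 in ESCs. The 3 groups did not overlap. The difference between otospheres and CSE was -0.39 (95% interval -0.79 to 0.01, adjusted p = 0.236), and otospheres were higher than ESCs by 1.22 (SE 0.20, adjusted p = 0.00188). The other Fgfr1 probes did not show the difference from ESCs, with values of 0.04 and -0.16 (adjusted p = 0.964 and 0.703). CSE was higher than ESCs by 1.61 (SE 0.21, adjusted p = 5.72e-04), which the other probes did not show either, at 0.21 and -0.09 (adjusted p = 0.633 and 0.924). From the processed signal, the differences of the brightest probe from ESCs were 0.66 in otospheres (adjusted p = 0.136) and 0.77 in CSE (adjusted p = 0.0999).

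Fgf9, a ligand of the otic epithelium, ran from ESCs through otospheres to CSE. Its log2 signal was 8.23, 8.52, 8.63 and 8.83 in otospheres and 11.10, 11.38 and 10.90 in CSE, and the probe was well above background on neither ESC array, where it read 5.32 and 5.22. No sample of a group overlapped with another group. Relative to CSE, the otosphere signal differed by -2.57 (SE 0.19, 5.95-fold lower, adjusted p = 1.23e-04). Otospheres were at least 8.76-fold higher than ESCs (adjusted p = 1.66e-05), and CSE was at least 52.1-fold higher than ESCs (adjusted p = 9.52e-07). These bounds set the ESC arrays at the lowest signal that was well above background on each, or at the probe's own where that was higher. Like all bounds here, they are ratios of group means and leave out the spread between samples.

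Fgf10, which is made in the cochlear duct, ran in that order too. Log2 signals were 7.40, 6.87, 8.0 and 8.07 in otospheres, 11.50, 11.12 and 11.13 in CSE, and 5.62 and 6.30 in ESCs. The otospheres lay between the other groups and nearer to the ESCs. The difference from CSE was -3.67 (SE 0.32, 12.7-fold lower, adjusted p = 2.49e-04) and that from ESCs was 1.63 (SE 0.36, 3.09-fold higher, adjusted p = 0.00881), the latter lost without ES1 (adjusted p = 0.078). Fgf10 is spotted 10 times on the array, and in the authors' own log2 table the probes spotted 10 times have a median of 0.0994 of the log2 value from the scanner files, and the difference from CSE there was -0.38 (adjusted p = 0.199). With those values multiplied by 10 it was -3.77 (adjusted p = 1.59e-04).

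Fgf20, a ligand of the prosensory domain, did not rise well above background on a single one of the 6 otosphere arrays. Its log2 signal was 5.08, 5.27, 5.23 and 5.08 in otospheres and 7.06, 6.58 and 7.05 in CSE, where all 3 arrays were well above background. The groups were apart in every sample, and the signal was at least 3.27-fold lower in otospheres (adjusted p = 0.00417). The other probe gave at least 2.02-fold (adjusted p = 0.00549). ES1 read 5.07, not well above background, and ES2 read 6.24, each on 1 array of its own slide. The other probe read 4.73 in ES1 and 4.99 in ES2 and was well above background in neither. CSE was higher than ESCs by 1.24 (SE 0.32, adjusted p = 0.0192), which was lost without CSE1 (adjusted p = 0.0623), CSE3 (0.0576) or ES1 (0.108). Without ES1, the difference of otospheres from the remaining ESC array was -1.08 (adjusted p = 0.0155).

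Fgf8, the ligand of inner hair cells, had log2 signals of 6.83 and 6.42 in the otosphere samples of the first slide (OS1 to OS3) and of 7.79 and 8.28 in those of the second (OS4 to OS6). It was 8.22, 8.53 and 9.34 in CSE and 8.35 and 7.69 in ESCs. OS6 lay just above the lowest CSE sample and the other otospheres lay below all CSE samples, the first-slide ones furthest. Over both slides, otospheres and CSE differed by -1.37 (SE 0.47, adjusted p = 0.111). This difference was -1.75 within the first slide and -1.30 within the second, and with slide as a block it was -1.50 and passed the test (adjusted p = 0.0435). Without OS6 it was -1.68 (adjusted p = 0.0467). A second, dimmer probe gave -0.80 (adjusted p = 0.168) against CSE and -1.22 (adjusted p = 0.0324) against ESCs, and the remaining probe was well above background on 1 array of the 11.

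**Figure D2:**
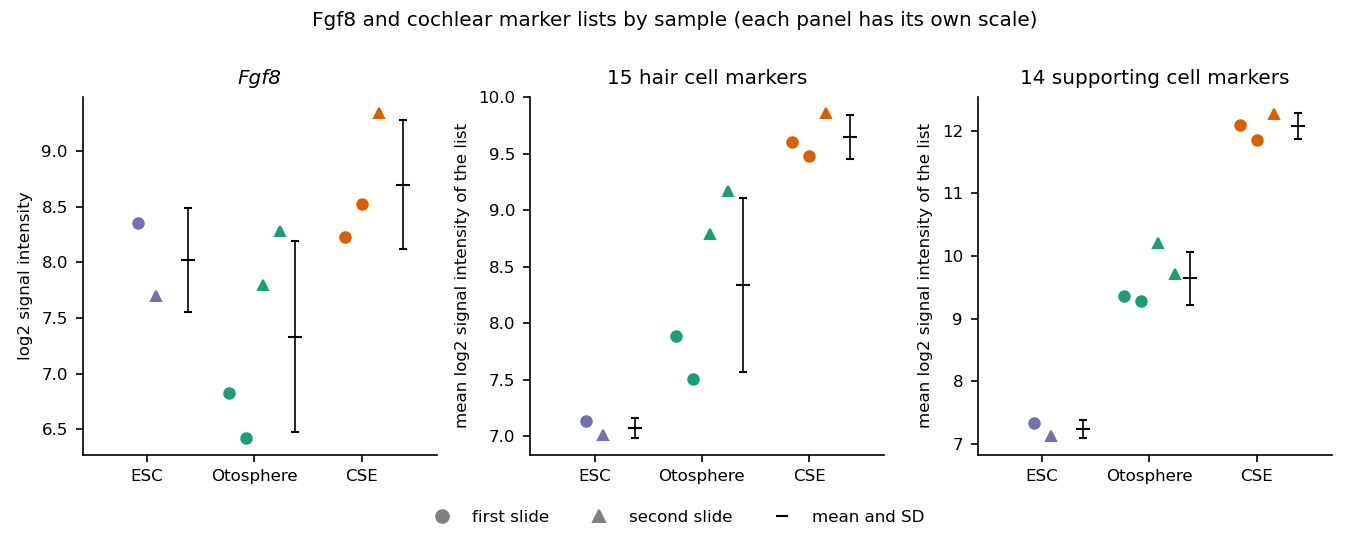
Log2 signal of Fgf8 and the mean log2 signal of the hair cell and supporting cell marker lists in every sample, with circles for the first slide and triangles for the second and the mean and SD of each group. The hair cell list stands at 7.89 and 7.51 in the first-slide otosphere samples and at 8.79 and 9.17 in the second-slide ones, in the same order as Fgf8. The otosphere samples of the slides did not overlap for 45.4% of all probes. The supporting cell list was also higher in the second-slide otospheres, where Fgfr3, not shown here, was lower.

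As with 8 of the 10 Fgf genes, most markers of cochlear cell types had lower means in otospheres than in CSE. The counts of markers called stand beside 6.19% of all probes called lower and 4.84% called higher. Within the otospheres the orders could differ. Fgfr3 was lower on the second slide than on the first (-0.55). The supporting cell list was higher on the second slide (10.21 and 9.72) than on the first (9.37 and 9.27). The mean log2 signal of 15 hair cell markers was 7.51 to 9.17 in otospheres and 9.48 to 9.86 in CSE, with 14 of the 15 lower in otospheres, 7 of them by the test, and 1 called higher. All 15 were well above background on at least 1 otosphere array. The mean of 14 supporting cell markers was 9.27 to 10.2 in otospheres and 11.8 to 12.3 in CSE, with 13 of 14 lower and 11 called lower. Prox1, a transcription factor of supporting cells, did not reach that level on any otosphere array. Lists for other cells of the dissected tissue were also lower in otospheres, neuronal markers at 8.03 to 8.48 against 11.2 to 12.3 (9 of 12 called lower) and mesenchymal markers at 8.18 to 11.9 against 12.0 to 12.5 (2 of 14 called lower). Glial (5 of 10), endothelial (5 of 8), macrophage (6 of 8) and erythroid (5 of 7) markers were called lower as well, and 1 glial marker was called higher. The part of these cells in the differences of the Fgf genes was not tested. ESCs held the pluripotency markers at a mean of 12.7, against at most 7.13 in any other sample, as their label says.

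Fgf18 and Fgf2 were the genes whose mean was not lower in otospheres than in CSE. Fgf18, a ligand best known from skeletal development, had log2 signals of 10.00, 9.86, 10.42 and 10.60 in otospheres, 9.92, 9.63 and 9.48 in CSE, and 8.95 and 9.88 in ESCs. Otospheres and CSE overlapped, and their difference was 0.55 (95% interval -0.08 to 1.17, adjusted p = 0.298). The other probe gave 0.70 (adjusted p = 0.231). Against ESCs, the otospheres differed by 0.81 (adjusted p = 0.0892), and by 1.27 when ES2 was left out (adjusted p = 0.0251).

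Fgf2, which encodes the factor added to the medium, was a dim probe in every group. It read 5.99, 6.79, 5.70 and 5.39 in otospheres and 5.74, 5.37 and 5.58 in CSE, and was well above background on 5 of 6 otosphere arrays and 2 of 3 CSE arrays. OS3 was the highest sample and OS6 the lowest of the otospheres, inside the CSE range. The difference between otospheres and CSE was 0.41 (95% interval -0.28 to 1.09, adjusted p = 0.545), 0.84 within the first slide and -0.04 within the second. On the ESC arrays it was not well above background. The bound from the group means, which leaves out the spread between samples, was 1.5-fold higher in otospheres than in ESCs. The fitted difference of 0.83 (95% interval 0.04 to 1.61) did not pass the test (adjusted p = 0.113). It passed without OS6 (adjusted p = 0.0485).

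**Figure D3:**
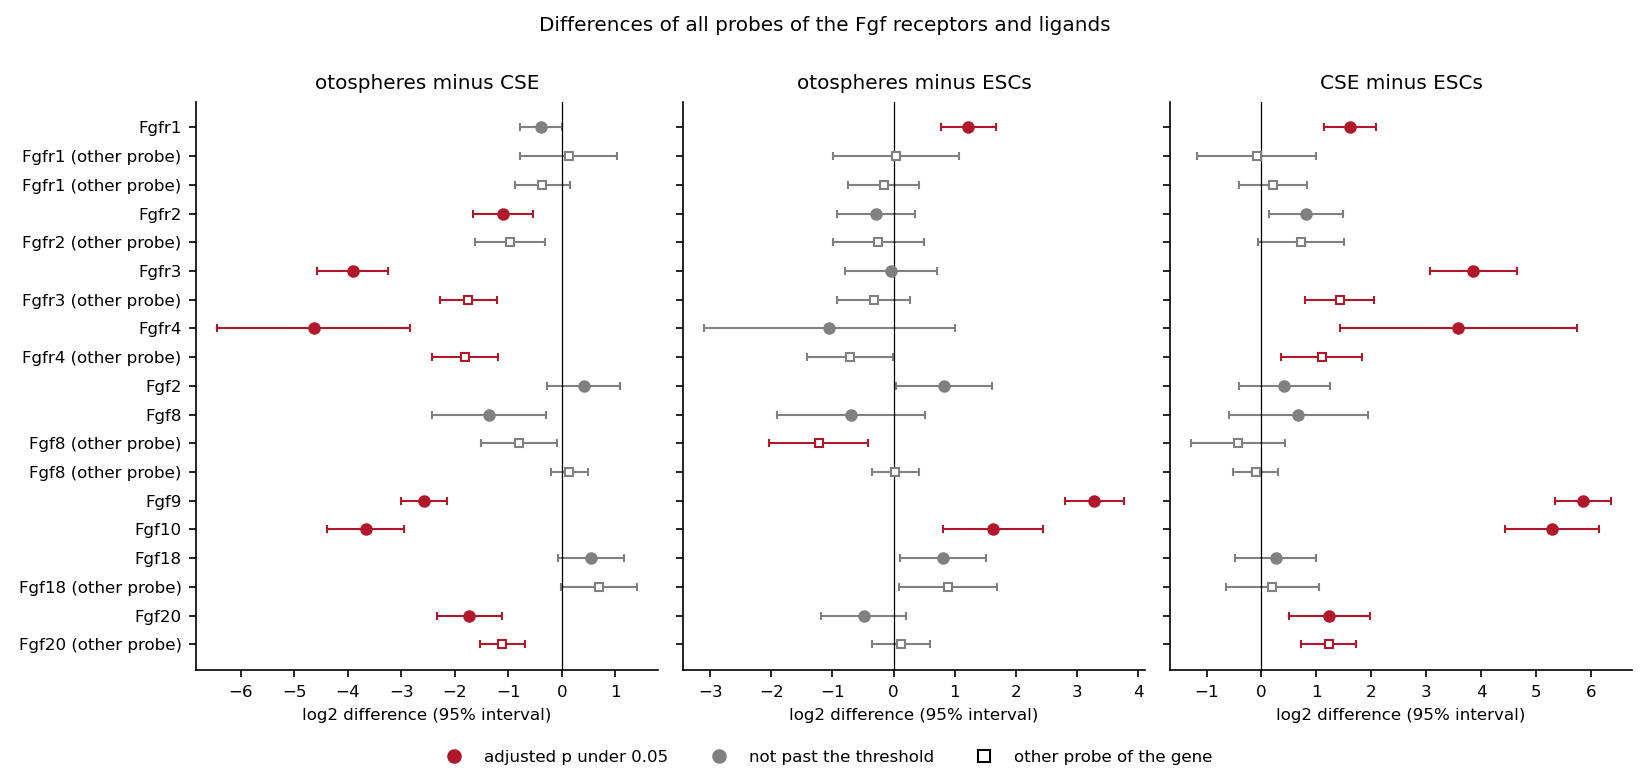
Log2 differences of all 19 probes between otospheres and CSE, otospheres and ESCs, and CSE and ESCs, each with its 95% interval from the limma fit, filled circles for the brightest probe of a gene, open squares for the others, and red for an adjusted p under 0.05. All 9 probes in red in the first panel lie left of 0, and Fgf9 and Fgf10 lie to the right of 0 in the other panels.

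Against ESCs, 3 of the 10 genes passed the test in otospheres, where 27.7% of all probes passed (12.1% as higher, 15.6% as lower), and all 3 were higher: Fgfr1, Fgf9 and Fgf10. In CSE, 6 passed against 28.8% of all probes (13.2% as higher, 15.6% as lower), again all higher: Fgfr1, Fgfr3, Fgfr4, Fgf9, Fgf10 and Fgf20. By its brightest probe, no gene was lower in either comparison, by the adjusted p or at an unadjusted p under 0.05. Of the 19 probes, 3 were called higher and 1, the second Fgf8 probe, lower in otospheres than in ESCs, and 9 were called higher and 0 lower in CSE than in ESCs. The 2 comparisons share the ESC arrays, and both share samples with the comparison of otospheres and CSE. Fgfr3, at 3.86 (SE 0.35, adjusted p = 8.71e-05) in CSE and -0.05 in otospheres, and Fgfr4, at 3.59 in CSE and -1.05 (SE 0.90, adjusted p = 0.449) in otospheres, were the receptors with the widest gap between these values. That gap is by construction the difference between otospheres and CSE given above, not a further result. Over the 3 groups together, limma's F-test called 7 of the 10 genes, all but Fgf2, Fgf8 and Fgf18, where it called 33.8% of all probes.

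The 2 slides carried all 3 groups, the first with ES1, OS1 to OS3, CSE1 and CSE2 and the second with ES2, OS4 to OS6 and CSE3. The difference between otospheres and CSE had the same sign on both slides for 9 of the 10 genes, with Fgf2 as the exception. It was -3.54 and -4.37 for Fgfr3, -4.15 and -5.00 for Fgfr4, -2.86 and -2.17 for Fgf9, -4.17 and -3.10 for Fgf10, and -1.64 and -1.89 for Fgf20, on the first and the second slide. Within the otospheres, the samples of the slides did not overlap for 8 of the 10 genes, and for 45.4% of all probes. Each slide was scanned on 1 date, and slide and culture cannot be told apart within the otospheres, nor slide and line within the ESCs.

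The other genes of the pathway moved in both directions. Of 64 genes in 5 lists (12 other ligands, 4 intracellular Fgfs, 16 receptor partners, 18 heparan sulfate genes and 14 feedback genes and Etv factors), 63 could be tested. Between otospheres and CSE, 7 of these passed as higher in the spheres and 4 as lower, or 17.5% against 11% of all probes, with a median difference of 0.02. The counts of the single lists below stand beside the same shares of all probes, 4.84% as higher and 6.19% as lower. Against ESCs, 18 passed as higher and 16 as lower, or 54.0% against 27.7% of all probes. Each pathway gene counts by its brightest kept probe, whereas all probes include dimmer ones and ones without a gene name (24479 of the 47997 are named). The shares are therefore not fully alike.

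**Figure D4:**
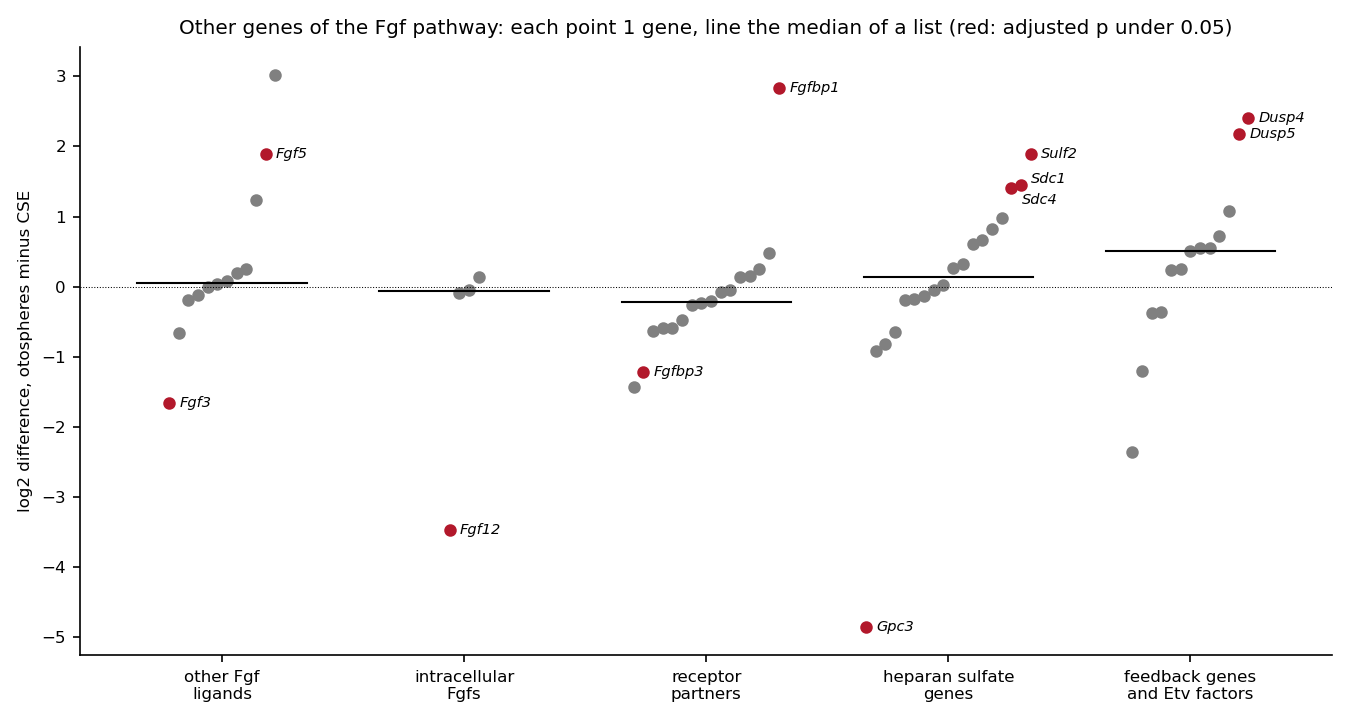
Log2 differences between otospheres and CSE of the 63 other pathway genes tested, each point 1 gene, ordered within its list, with the median of each list as a line and genes with an adjusted p under 0.05 named in red. The named genes include Fgfbp1, Dusp4 and Dusp5 above 0 and Gpc3 and Fgf12 far below it.

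Among the 12 other ligands, 1 was higher and 1 lower. Fgf3, a ligand of early otic induction, had log2 signals of 4.65 to 5.02 in otospheres, well above background on no array, and of 6.26, 6.53 and 6.70 in CSE, which made it at least 2.68-fold lower in otospheres (adjusted p = 0.00146). Fgf5 ran the other way, at 8.30, 7.40, 6.82 and 6.13 in otospheres and 5.02 to 5.44 in CSE (difference 1.90, SE 0.45, adjusted p = 0.0288). The Fgf5 call was lost without the pair OS4 and OS5 (adjusted p = 0.0545), without OS3 (0.0606) and without any 1 CSE sample (0.0845 to 0.0921). Fgf21, an endocrine ligand, was at 9.33, 7.40, 11.83 and 12.47 in otospheres, 6.85 to 7.70 in CSE and 6.35 and 4.94 in ESCs. Its difference from ESCs, 4.61 (SE 1.24, adjusted p = 0.0221), was lost without the pair OS4 and OS5 (0.0514), ES1 (0.0533) or ES2 (0.139). Fgf4, a ligand of pluripotent cells, was at 13.82 and 13.72 in ESCs and well above background on no otosphere array, at least 433-fold lower (adjusted p = 5.2e-08).

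Of the 4 intracellular Fgfs, which are not secreted and bind sodium channels, Fgf12 was lower in otospheres. It was well above background on none of the otosphere arrays and read 9.0, 8.67 and 7.98 in CSE, at least 10.7-fold higher there (adjusted p = 8.46e-05). The neuronal markers and the other cochlear cell lists above were lower in the same samples, and their part in the Fgf12 difference was not tested.

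Of the 16 receptor partners, 1 was higher and 1 lower, a share near the 11% of all probes that passed. Fgfbp1, a carrier that releases Fgfs from the matrix, was at 9.81, 7.10, 9.57 and 10.23 in otospheres and 5.93 to 6.62 in CSE (difference 2.83, SE 0.67, adjusted p = 0.0273), with OS3 well below the other otospheres. Fgfbp3 had a difference of -1.22 (SE 0.31, adjusted p = 0.0396). These calls were lost without any 1 CSE sample, with adjusted p of 0.0769 to 0.0894 for Fgfbp1 and 0.106 to 0.119 for Fgfbp3. They were also lost without the pair OS1 and OS2 (0.0677 and 0.0949), the pair OS4 and OS5 (0.0765 and 0.0875) or OS6 (0.0583 and 0.0674), and that of Fgfbp3 without OS3 (0.0659) and with slide as a block (-1.18, adjusted p = 0.0531). Against ESCs, the adhesion protein Flrt2 was at least 9.81-fold higher in otospheres (adjusted p = 0.0124, and 0.0906 without ES1), and the adaptor Frs3 was lower, with a difference of -1.64 (SE 0.39, adjusted p = 0.0128). The Frs3 difference rested on ESC lines that read 8.37 (ES1) and 6.62 (ES2), and was -0.76 without ES1 and -2.51 without ES2, with the call kept in both cases.

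Among the 18 heparan sulfate genes, 3 were higher in otospheres than in CSE and 1 was lower. Sulf2, which removes sulfate groups from heparan sulfate, was at 11.27, 11.04, 10.44 and 10.87 in otospheres and 9.34, 8.76 and 8.92 in CSE (difference 1.90, SE 0.25, adjusted p = 0.00171). The proteoglycan Sdc4 was higher by 1.41 (SE 0.26, adjusted p = 0.00887) and Sdc1 by 1.45 (SE 0.35, adjusted p = 0.0309), the latter lost without the pair OS1 and OS2 (0.0561), OS3 (0.0634) or any 1 CSE sample (0.0904 to 0.0985). Gpc3, a glypican, read 7.31, 6.16, 8.27 and 6.90 in otospheres and 12.05, 12.08 and 11.92 in CSE. It was 29.0-fold lower in otospheres than in CSE (difference -4.86, SE 0.43, adjusted p = 2.74e-04) and also lower than in ESCs (difference -3.29, SE 0.49, adjusted p = 0.00111). Sdc3 was higher in otospheres than in ESCs by 4.0 (SE 0.45, adjusted p = 2.79e-04).

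Of the 13 feedback genes and Etv factors tested, 2 passed as higher in otospheres than in CSE and none as lower, with a median difference of 0.52. The Etv factors had lower means in otospheres but did not pass. Their differences were -2.36 for Etv1 (adjusted p = 0.0948), -1.20 for Etv4 (0.127) and -0.36 for Etv5 (0.496). Otosphere and CSE samples did not overlap for Etv1 and Etv4. They did not overlap either for Spry1 (1.08, adjusted p = 0.0511), Spry2 (0.52, 0.235), Spred1 (0.56, 0.102) and Dusp4, which had higher means in otospheres. The same held for 23.4% of all probes. Dusp4, a phosphatase that acts on MAP kinases, was at 9.45, 9.97, 9.39 and 9.62 in otospheres and 6.86, 7.20 and 7.54 in CSE (difference 2.41, SE 0.22, adjusted p = 3.09e-04), and it was higher still in ESCs, at 10.89 and 10.57. Dusp5, of the same family, was higher by 2.18 (SE 0.59, adjusted p = 0.047), though OS3 at 7.05 lay below CSE3 at 7.28. The Dusp5 call was kept in 8 of 19 alternatives. It was lost without the pair OS1 and OS2 (0.0827), the pair OS4 and OS5 (0.116), OS6 (0.104), CSE1 (0.183) or CSE2 (0.146). It was also lost without either ESC array, with the difference unchanged at 2.18. The ESC arrays enter that comparison only through the spread shared by the groups. Against ESCs, the Sprouty gene Spry1 was higher in otospheres by 1.1 (SE 0.34, adjusted p = 0.0395), which was kept in 11 of 19 alternatives, and Spry2 was lower, with a difference of -2.26 (SE 0.26, adjusted p = 3.25e-04). The Spry1 call was lost without either otosphere pair at 0.0692 to 0.0837 and without OS3 at 0.0725. It was also lost without ES1, where the difference was 0.88, and without ES2, where it was 1.31. Without CSE1 it was lost at 0.0511 with the difference unchanged at 1.1, as CSE1 enters only through the shared spread.

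The genes most like 3 of the members across the 9 samples were picked by Pearson's r over 18544 genes, each by its brightest probe. For Fgfr3 these were C1qa (r = 0.993), a complement gene of the macrophage list, Evc2 (0.991) and Plpp4 (0.990). For Fgf10 they were Oc90 (0.990), which encodes a protein of the otoconia, Mn1 (0.989) and Chgb (0.989). For Fgf20 they were Ube2n (0.986), Gabra3 (0.984) and Atp13a4 (0.981). Fgf9 and Fgf10 had an r of 0.934 with each other. The 9 samples fall into 3 groups, so these values mostly describe the group means.

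The median signal of an array was 68 to 116 against a median background of 32 to 38, and 55.1% to 71.6% of spots were well above background, with ranges that overlapped between the groups. No spot was saturated. The number of arrays limits the precision.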

How the data were processed

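The scanner files, as deposited, hold for each spot the linear intensity of the signal and of its local background (Feature Extraction 10.7.3.1). The authors' own log2 table, also deposited, had been background-corrected, quantile-normalized (limma) and freed of dim probes, and was used here as an alternative. Here, median intensities went through normexp in limma 3.58.1 (R 4.3.3) with an offset of 16, which the paper does not name, then log2 and quantile normalization of the 11 arrays. Spots flagged as outliers were dropped, and repeat spots of 1 probe were averaged. Probes had to exceed the 95th percentile of an array's 308 negative controls by 10% on 2 arrays or more. The methods ask for 3 arrays, and 2 were used since there are 2 ESC arrays. A total of 47997 probes were kept.

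Array pairs within a group were compared with the spread between spots over 13454 bright probes (log2 signal of at least 9). The ratio of their spread to that between spots was 0.896 for OS1 with OS2 and 0.406 for OS4 with OS5, and 1.54 or more for the other 17 pairs.

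A limma model with 1 mean for each group gave the pairwise comparisons and the F-test, with p-values adjusted by Benjamini-Hochberg over the 47997 probes and called at 0.05. The code was tested on simulated data. "Lost" means an adjusted p above the threshold. Leaving out a CSE sample or an otosphere pair lowered the number of calls over all probes too, as given below. "Well above background" is the scanner's flag. Probes were named through RefSeq accessions (26762 named, 28919 not). A fitted fold change depends on the offset, and a bound is given where no array of a group was well above background. The bound allows for the dim signal only. It was taken from group means at the offset of 16 and is not a confidence limit. Levels of different probes are not compared.

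Named besides the 10 members were, for each pathway list, up to 3 genes with the largest rise and 3 with the largest fall called between otospheres and CSE, and 1 of each called between otospheres and ESCs. The Etv factors were named as well, and so were genes of their list whose otosphere and CSE samples did not overlap. The members, lists and settings were chosen with earlier results of these data known. Alternatives were the offset (0 and 50), the processed signal scaled to the 75th percentile, the authors' table, the filter (3 arrays, none), 11 separate arrays, slide and replicate number as blocks, other probes, and leaving out each sample.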

Additional observations from a re-analysis of the deposited data

How the results depend on the processing

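The counts of members stayed within 1.5 times of their values under all 19 alternatives, except that without ES1 the otospheres had 1 member called lower than ESCs in place of 0. Leaving out 1 sample gave 5 to 7 members lower in otospheres than in CSE and 0 higher, 2 to 4 higher and 0 to 1 lower than in ESCs, 4 to 7 higher in CSE than in ESCs and 0 lower, and 6 to 8 called by the F-test, for which the methods' one-way test per probe called 6. For the pathway genes it gave 3 to 6 higher and 3 to 5 lower between otospheres and CSE, with 3 higher without CSE1 or CSE2, 4 higher without either otosphere pair, and 7 lower when all 11 arrays were separate samples. Against ESCs it gave 13 to 18 higher and 11 to 16 lower for otospheres and 13 to 18 higher and 9 (without ES1) to 16 lower for CSE. The calls of Fgfr3, Fgfr4, Fgf9 and Fgf20 between otospheres and CSE were kept in 19 of 19 alternatives. From the processed signal, the calls of Sdc1 (adjusted p = 0.0781), Fgfbp3 (0.0792) and Dusp5 (0.0565) against CSE and of Spry1 against ESCs (0.16) were lost, and with an offset of 50 those of Fgf5 (0.0604) and Dusp5 (0.0597) were. Some differences changed sign, and none was called after the change. Between otospheres and CSE these were other probes of Fgf8 (0.14) and Fgfr1 (0.13). Between otospheres and ESCs they were other probes of Fgf20 (0.12), Fgf8 (0.031) and Fgfr1 (-0.16). There, leaving out 1 sample moved Fgf20 from -1.08 to 0.10 (without ES2), Fgfr3 from -0.61 to 0.51 (without ES1, and 0.10 without OS6) and Fgfr4 from -2.25 to 0.15 (without ES1). Between CSE and ESCs they were other probes of Fgf8 (-0.11 and -0.42) and Fgfr1 (-0.087), and Fgf18 ran from -0.21 (without ES1) to 0.73. The cause of these changes was not tested. Same-numbered arrays of different groups had deviations from their group means that correlated at -0.393 to 0.356. These few values also carry the slides, so they cannot tell whether the replicate numbers pair the samples. With a replicate block over 11 arrays, 7 members were lower in otospheres than in CSE, Fgf8 among them (-2.01, adjusted p = 0.0212), and the differences from ESCs were 0.18 for Fgfr3 and 0.37 for Fgfr4, with changed sign. The block ended the calls of Fgfbp1 (0.0656), Fgfbp3 (0.0768) and Dusp5 (0.172) against CSE, of Spry1 against ESCs (0.0701) and of Fgf20 between CSE and ESCs (0.084). In the authors' table, the log2 values of 372 probes spotted 10 times were a median 0.0994 of those from the scanner files, against 0.976 for 43256 probes spotted once. That takes in Fgf2, Fgf10 and Fgf12, 3 of the 73 genes described, and Fgf12 had a difference of -0.44 there (adjusted p = 0.131) and of -4.43 once multiplied by 10 (adjusted p = 1.90e-04), an alternative added after the data were seen. Fgf20 and Fgf3 were well above background on no otosphere array, so their differences from CSE are bounds.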
